A study of Mus musculus with 2 samples.

Results

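The sites described here are the intergenic places in the genome where the vitamin D receptor (VDR) peak lists of both maternal diets held a peak. A site is a normal-diet peak that was chosen by its overlap with a deficient-diet peak, by at least 1 bp, and by its position. Its summit had to lie outside every RefSeq gene span of the mm10 mouse genome and more than 1000 bp from every gene end. Only autosomes and the X were used, and fixed bins of 100 kb holding 10 or more peaks of either list were left out. This gave 2756 sites among 20846 normal-diet peaks kept, and among 6879 normal-diet peaks of any position that overlapped a deficient-diet peak. A further 206 intergenic peaks with such a partner lay in the 357 crowded bins.

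The samples were left ventricle of mouse embryos at E16.5, 1 from a mother or mothers on a normal diet and 1 from a diet deficient in vitamin D. Chromatin was immunoprecipitated for VDR and the recovered DNA sequenced (ChIP-seq), and the series asks how maternal vitamin D deficiency bears on heart formation and on chromatin structure. The labels give neither strain, genotype and sex nor the number of mothers and embryos pooled, so both samples were taken as described by diet, tissue and age alone. Each diet has 1 library, so no difference could be set against a spread between replicates, no test between diets was made, and the comparisons describe the 2 libraries.

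VDR is a nuclear receptor that is activated by the hormonal form of vitamin D. It usually pairs with a retinoid X receptor and binds short direct repeats in DNA, at promoters and at elements far from genes, where it recruits coactivators or corepressors. Distal elements can act on genes across long stretches of chromatin, and the nearest gene is therefore a position label and not a known target.

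The libraries differed in depth, which bears on every value below. The genome-wide background, the lowest expected number of fragments at a summit in a list, was 2.65 fragments in the normal-diet library and 5.38 fragments, 2.03 times as many, in the other. The whole lists held 23456 and 37661 peaks. The files used hold peaks and not gene expression, so the tissue label could not be set against marker genes.

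Intergenic peaks of the normal diet had a partner more often than peaks at genes. Of 6980 intergenic normal-diet peaks, 2756 had a partner, 39.5% of them (95% exact binomial interval 38.3 to 40.6%), against 33.0% of all normal-diet peaks kept. The share was 29.7% (28.8 to 30.7%) for peaks inside genes and 29.7% (28.4 to 31.1%) for peaks within 1000 bp of a gene end. All intervals given here hold for counting error alone and leave out variation between animals and libraries. The overlap chose the sites, so these shares are descriptions without a test.

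Seen from the deficient-diet list, which was longer, the order of the classes was not the same. There 24.0% (23.2 to 24.8%) of 11597 intergenic peaks had a partner, close to the 23.4% (22.4 to 24.5%) of peaks near gene ends and above the 17.7% (17.1 to 18.4%) of peaks inside genes. Intergenic sequence held 40.1% (38.9 to 41.2%) of the shared normal-diet peaks and 30.2% (29.5 to 31.0%) of the unshared ones.

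Nearly every site was intergenic in both lists, an outcome favoured by the overlap and by the limit of 1000 bp from gene ends. The deficient-diet partner was also intergenic at 2752 of the 2756 sites, lay near a gene end at 4 and lay inside a gene at none. The sites had 2686 distinct partners, because neighbouring normal-diet peaks could overlap the same deficient-diet peak. A further overlapping peak besides the longest partner was found at 101 sites.

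The sites lay far into the space between genes. The median distance from the summit to the nearest gene end of any kind was 23127 bp, with quartiles of 9490 and 60747 bp. Intergenic peaks without a partner lay closer, at a median of 16466 bp in the normal-diet library and 16260 bp in the deficient-diet library. Of the sites, 12.2% lay within 5 kb of a gene end, 33.7% between 5 and 20 kb, 39.6% between 20 and 100 kb, and 14.5% beyond 100 kb.

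The same held for protein-coding genes. The median distance to the nearest one was 81115 bp for the sites, 46018 bp for intergenic peaks of the normal diet alone and 48128 bp for those of the deficient diet alone. More than 500000 bp separated 355 sites from any protein-coding gene, which is 12.9% (11.7 to 14.2%), against 8.85% (8.01 to 9.75%) and 8.49% (7.92 to 9.10%) in the unshared groups.

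**Figure D1:**
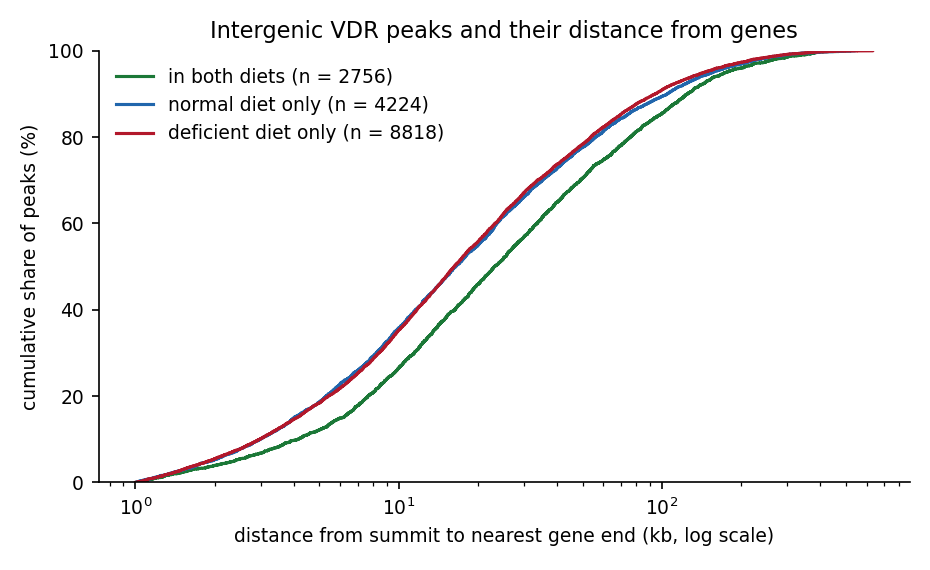
Cumulative share of intergenic peaks (percent) against the distance of the summit from the nearest gene end, on a log scale in kb, for sites in both diets and for peaks of either diet alone. The curve of the 2756 sites lies to the right of the curves of the unshared peaks, with medians of 23127, 16466 and 16260 bp.

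Among intergenic normal-diet peaks, the share with a partner was higher in the bands farther from genes. It was 29.9% (27.2 to 32.6%) at 1 to 5 kb from a gene end, the level of peaks at genes. It was 37.7% at 5 to 20 kb, 41.4% at 20 to 50 kb and 45.4% at 50 to 100 kb. At 100 to 200 kb it was 47.6% (43.6 to 51.7%), and beyond 200 kb 46.3% (39.8 to 52.8%), so the intervals of the bands beyond 50 kb overlap.

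Peak width differed a little along this scale, with a median of 223 bp at 1 to 5 kb and 248 bp beyond 100 kb. Among normal-diet peaks of 250 bp or less, the share was 22.5% (19.5 to 25.8%) at 1 to 5 kb and 33.0% (28.5 to 37.6%) beyond 100 kb. Among wider peaks it was 42.3% (37.5 to 47.2%) and 62.2% (57.4 to 66.9%). Among peaks whose background was the genome-wide one, the shares were 29.2% and 50%.

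The deficient-diet list had the same order at its own level. Its share with a partner was 17.2% (15.6 to 19.0%) at 1 to 5 kb and 33.4% (30.2 to 36.7%) at 100 to 200 kb.

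**Figure D2:**
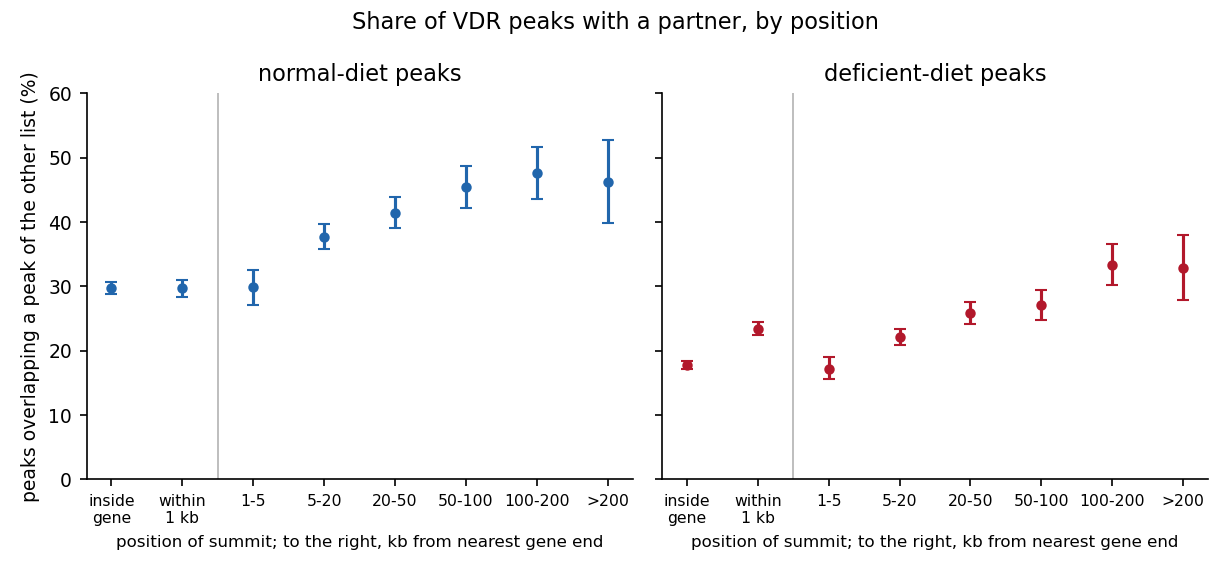
Share of peaks with a partner in the other list (percent) with exact 95% binomial intervals, by position of the summit. Normal-diet peaks are at left and deficient-diet peaks at right. Positions are inside a gene, within 1 kb of a gene end, and bands of distance beyond that. The share of intergenic peaks is 29.9% at 1 to 5 kb and 47.6% at 100 to 200 kb in the normal-diet list. In the deficient-diet list it is 17.2% and 33.4%.

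Width separated peaks with and without a partner more than distance did. Since overlap chose the pairs, a higher share among wider peaks was favoured by the choice. How much of the difference by width came from the overlap rule was not tested. Of intergenic normal-diet peaks of 200 bp or less, 26.9% (24.9 to 28.9%) had a partner, and of those over 600 bp 87.1% (81.1 to 91.7%). In every width band up to 600 bp the share was higher for intergenic peaks than for the other classes. At 200 bp or less it was 19.0% (17.6 to 20.5%) inside genes and 22.4% (20.2 to 24.8%) near gene ends. At 400 to 600 bp the share was 71.9% (68.1 to 75.5%) for intergenic peaks, 58.3% (54.2 to 62.4%) inside genes and 48.9% (43.4 to 54.5%) near gene ends. Intergenic peaks over 600 bp, at 87.1%, did not stand apart from those inside genes at 86.8% (79.7 to 92.1%).

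The nearest annotated gene was most often a pseudogene. A pseudogene was nearest at 1005 sites (36.5%, 34.7 to 38.3%), a protein-coding gene at 864 (31.4%, 29.6 to 33.1%), a long non-coding RNA gene at 664 (24.1%, 22.5 to 25.7%) and a gene of another type at 223 (8.09%). Intergenic peaks of the normal diet alone had a pseudogene nearest in 28.8% (27.5 to 30.2%) and a long non-coding RNA gene in 30.04% (28.7 to 31.5%). Those of the deficient diet alone had 27.5% and 31.0%. Sites in both diets therefore had a pseudogene nearest more often, and a long non-coding RNA gene less often, than unshared intergenic peaks of either library. The sites also lay farther from genes than the unshared peaks, and the type of the nearest gene was not compared at like distance.

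The sites showed no lean towards the start of genes. Where the strand of the nearest protein-coding gene was known, 1039 of 2134 sites (48.7%, 46.6 to 50.8%) lay on its 5′ side. The share was 49.7% and 50.7% for the unshared peaks of the normal and deficient diets.

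The X chromosome held 171 sites, which were 71.5% (65.4 to 77.2%) of its 239 shared normal-diet peaks. Peaks on the X were mostly intergenic whether shared or not, and 68.1% (63.7 to 72.3%) of all its 474 normal-diet peaks were, against 32.7% (32.0 to 33.3%) on autosomes. Among shared peaks the intergenic share on single autosomes went from 27.1% (22.5 to 32.0%) on chromosome 11 to 51.5% (46.3 to 56.6%) on chromosome 3. Intergenic normal-diet peaks had a partner in 52.9% (47.3 to 58.5%) on the X and in 38.8% (37.7 to 40.0%) on autosomes. Peaks inside genes differed likewise, at 49.1% (39.5 to 58.7%) and 29.5% (28.6 to 30.4%), so the higher share on the X was not particular to intergenic peaks. For peaks near gene ends the intervals overlapped, at 33.3% (19.1 to 50.2%) of 39 on the X and 29.7% (28.4 to 31.05%) on autosomes.

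Seen from the deficient-diet list the intervals of the intergenic peaks overlapped. These had a partner in 26.6% (23.2 to 30.2%) on the X and in 23.8% (23.0 to 24.6%) on autosomes, while deficient-diet peaks inside genes had one in 30.9% and 17.6%. Near gene ends the order was the reverse, at 13.6% (7.6 to 21.75%) of 103 on the X and 23.6% (22.5 to 24.7%) on autosomes. Sites on the X were also wider, with medians of 303 bp in the normal-diet and 350 bp in the deficient-diet library, against 269 and 278 bp on autosomes. Sex was not given, and the part of width or of sex in the share was not tested.

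Most sites rested on few fragments. The summit pileup, the number of fragments covering the summit, was 17 at the median in the normal-diet library, with a 10th percentile of 14 and a 90th of 22, and from 12 to 354 overall. In the deficient-diet list it was 24 at the median, with a 10th percentile of 20 and a 90th of 30, and from 17 to 323 overall. The counts were larger in the deeper library at nearly every site, and the normal-diet pileup was the higher one at 60 sites.

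Over their own background the order was the opposite. Pileup divided by background had a median of 5.65 in the normal-diet library and of 4.09 in the deficient-diet library, and the normal-diet ratio was the higher at 2580 sites (93.6%). A deeper library reaches the same significance at a smaller ratio, and both lists end near the same limit, with lowest -log10 q of 2.004 and 2.005. The difference in the ratio and the difference in depth cannot be told apart with 1 library a diet.

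Height in the 2 libraries was weakly related. Across the 2756 sites Spearman's rho between the 2 pileups was 0.32. At the 1130 sites where both backgrounds were the genome-wide one it was 0.10. Sites are not independent replicates, and all come from the same 2 libraries, so rho is given as a description. A -log10 q of 5 or more was reached at 1171 sites in the normal-diet library, at 1110 in the deficient-diet library and at 549 in both (19.9%, 18.4 to 21.5%). The share strong in both was 15.6% (14.2 to 17.0%) for shared peaks inside genes and 13.7% (11.97 to 15.6%) near gene ends.

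**Figure D3:**
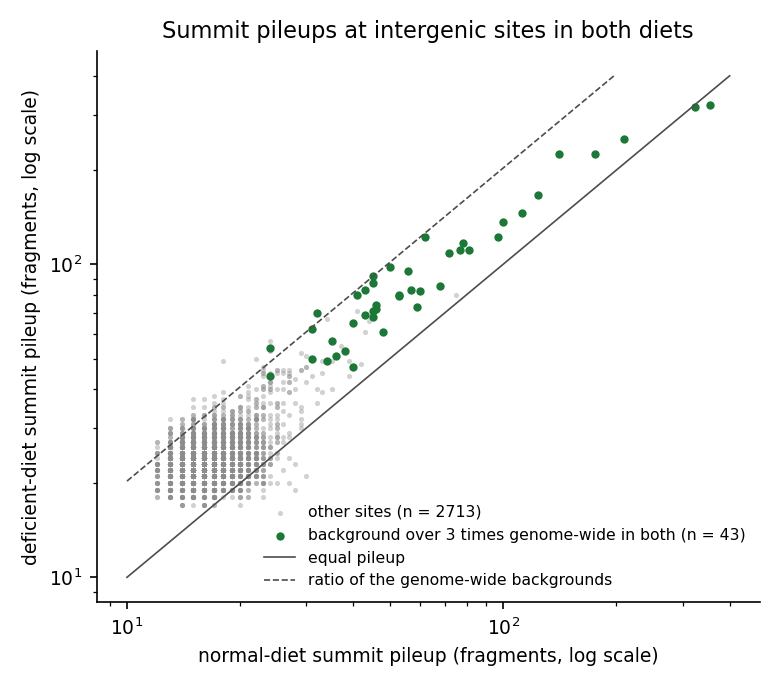
Summit pileup of each of the 2756 sites in the normal-diet library (x, fragments, log scale) and of its deficient-diet partner (y, fragments, log scale), with 43 sites of raised background in both lists marked, a solid line of equal pileup and a dashed line at the ratio of the genome-wide backgrounds. Most points form 1 cloud around pileups of 17 and 24, and the highest pileups are at the marked sites.

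The 2 summits of a pair were usually close. The median distance between them was 89 bp, with quartiles of 39 and 179 bp. It was at most 25 bp at 473 sites, at most 50 bp at 891 and at most 100 bp at 1483 (53.8%, 51.9 to 55.7%). Shared peaks near gene ends had a median of 98 bp and those inside genes 87 bp. The pairs shared a median of 194 bp, and at 1789 sites (64.9%) the overlap covered 50% or more of both peaks. Since overlap chose the pairs, short distances were favoured by the choice.

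**Figure D4:**
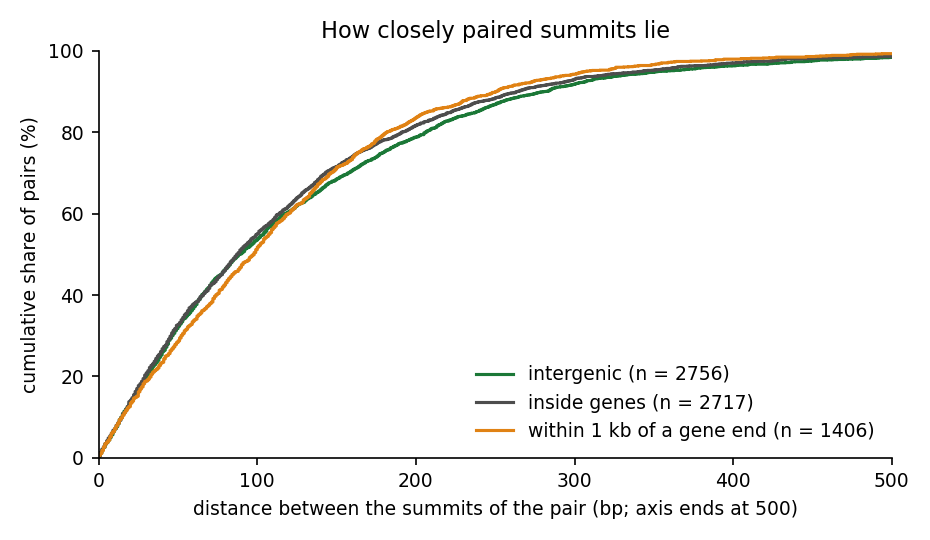
Cumulative share of pairs (percent) against the distance between the normal-diet and deficient-diet summits (bp), with 1 line each for intergenic sites, shared peaks inside genes and shared peaks within 1 kb of a gene end. The lines run close together, with medians of 89, 87 and 98 bp.

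The sites with the highest -log10 q lay where the background was also high. The 8 highest of each list made 13 distinct sites, and at 12 of them the normal-diet background was over 3 times the genome-wide one. Over all sites this was so at 46 in the normal-diet library and 47 in the deficient-diet library, 43 of them the same sites. Among the 100 sites with the highest normal-diet -log10 q it was so at 25. What raised the background at these sites was not tested.

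The widest of them, of 5800 bp, was at chr17:39843005-39848804. Its normal-diet summit lay 3158 bp from Rn18s-rs5, a pseudogene related to 18S ribosomal RNA. Its pileup was 354 over a background of 133.5 in the normal-diet library and 323 over 240.6 in the deficient-diet library. The 2 summits were 5410 bp apart, the longest distance of any pair. Another at chr3:5860414-5860812, with Gm8797 as the nearest gene, had pileups of 323 over 116.4 and 319 over 235.8. Both reached their rank on large counts, with ratios of 2.65 and 2.78 in the normal-diet library and 1.34 and 1.35 in the deficient-diet library, all below the median of the sites. Distances to genes were taken from summits, and a peak as wide as the first can come closer to a gene than its summit. At 1 of the 2756 sites the peak itself reached into a gene span.

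The site near Stx18, which encodes a syntaxin of the endoplasmic reticulum, was the only one of the 13 under that limit, and only just. Its background was 2.90 times the genome-wide one in the normal-diet library and 3.06 times in the deficient-diet library. The normal-diet background was thus raised here too, above the 90th percentile of 3.85 fragments over all sites. The site lay at chr5:38023020-38023331, 13506 bp from the gene on its 5′ side. Its pileup was 75 over 7.70 in the normal-diet library and 80 over 16.49 in the deficient-diet library. The ratios were 9.74 and 4.85, both above the medians of 5.65 and 4.09, and the summits were 8 bp apart.

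Smgc, which encodes a secreted protein of the submandibular gland, had 5 sites from chr15:91906660 to 91910379, 45292 to 48853 bp beyond its 3′ end. Their pileups were 24, 78, 81, 62 and 60 in the normal-diet library and 53, 117, 111, 122 and 82 in the deficient-diet library. Their summits agreed to between 16 and 42 bp. Every one of the 5 stood above the 90th percentile of pileup in both lists, and the background was 5.99 to 17.97 and 13.6 to 38.8 fragments.

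The other sites of highest -log10 q had normal-diet pileups from 45 to 210. Near LOC115490388 on chromosome 6 the pileups were 210 and 251, near Gm29726 on chromosome 1 they were 176 and 225, and near Gm40665 on chromosome 13 they were 100 and 137. Near Gm51572 on chromosome 8 they were 112 and 146, and near Gm6483 on chromosome 8 they were 56 and 95. Near Gm12020 on chromosome 11 they were 45 and 92, and near Gm32719 on chromosome 12 they were 57 and 83. Each of these had the higher pileup in the deeper library, as nearly every site did.

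The 6 sites farthest from any gene end were ordinary in height. The farthest, at chr4:29716603-29716783, lay 520394 bp from the pseudogene Gm11919 and 749169 bp from Epha7, an ephrin receptor, with pileups of 17 and 22. The site at chr8:74385635-74385854 lay 487430 bp from Isx, a homeobox gene of the intestine, with pileups of 21 and 23. Those at chr3:44247264-44247789 and chr3:44192125-44192575 had Pcdh10 as the nearest protein-coding gene, at 1130924 and 1185858 bp, with normal-diet pileups of 16 and 15 and deficient-diet pileups of 28 and 24.

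Pcdh9, like Pcdh10 a protocadherin of cell adhesion, was the nearest protein-coding gene of the site at chr14:91677105-91677522, with pileups of 18 and 26. Slit2, an axon guidance ligand, was that of the site at chr5:47163513-47163878, with pileups of 18 and 21. The nearest gene of any type was a pseudogene at 5 of the 6, and all 6 had normal-diet pileups between the 10th and 90th percentile of the sites.

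At the limit of 1000 bp, the sites just inside were 1011 bp from Gm23043, with pileups of 22 and 36, and 1014 bp from Tmem44, with pileups of 13 and 21. The shared peaks just left out were 997 bp from Gm51571, with pileups of 75 and 106, and 992 bp from Shox2, with pileups of 15 and 20.

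Heart transcription factors were often the nearest protein-coding gene. Of 42 on the list, 16 were nearest to at least 1 site, which is 38.1% (23.6 to 54.4%), against 8.31% of all protein-coding genes. These genes lie in wide gaps, however: the sequence nearer to the gene than to any other protein-coding gene had a median of 0.231 Mb for the list and 0.0185 Mb for all. Per Mb of that sequence there were 1.66 sites at the list (exact 95% Poisson interval 1.06 to 2.47) and 1.76 (1.69 to 1.82) at all protein-coding genes, so no difference in density was detectable.

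Nor did intergenic peaks near these genes stand apart in having a partner. Of 56 such normal-diet peaks 24 had one, which is 42.9% (29.7 to 56.8%), beside 39.5% over all intergenic normal-diet peaks. The 24 sites had pileups of 13 to 33 in the normal-diet and 19 to 45 in the deficient-diet library, with medians of 16 and 24. The ratio of pileup to background was higher in the normal-diet library at 23 of the 24. Of all 2756 sites, 919 lay 100000 to 500000 bp from the nearest protein-coding gene and 355 lay farther. A protein-coding gene was the nearest gene of any type at 864 of all sites. Of the 24 sites of these factors, 16 lay over 100 kb from the gene. At 4 of the 24 the factor was also the nearest gene of any type.

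The closest belonged to Foxc1, a forkhead factor of the outflow tract and vessels. Its sites were at chr13:31811697-31811943, 1177 bp beyond the 3′ end, with pileups of 16 and 23, and at chr13:31802012-31802192, 4487 bp on the 5′ side, with pileups of 13 and 24. Gata4, a zinc finger factor needed for heart morphogenesis, had a site 8843 bp away at chr14:63280440-63280712 with pileups of 16 and 20 and summits 5 bp apart. Gata6, its relative, had 1 at 266632 bp with pileups of 18 and 25. None of these had a background over 3 times the genome-wide one.

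Hand2, a basic helix-loop-helix factor of the right ventricle, had 3 sites on its 5′ side, at 137840, 138002 and 294838 bp. Their normal-diet pileups were 19, 14 and 17. The nearer pair overlapped the same deficient-diet peak, of pileup 27, and the farthest had a partner of pileup 24. Tcf21, an epicardial factor, had sites at 13746 and 121799 bp, with pileups of 17 and 31 at the nearer and 16 and 21 at the farther. The nearer Tcf21 site had a -log10 q above 5 in both lists.

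Tbx18, an epicardial and sinus node T-box factor, had sites at 84294 and 220764 bp with normal-diet pileups of 14 and 16 and deficient-diet pileups of 28 and 27. The Iroquois factors Irx5, Irx4 and Irx3, which pattern the ventricle, had 1 site each, at 75936, 129468 and 215167 bp. Their normal-diet pileups were 14, 17 and 13, and their deficient-diet pileups 19, 24 and 24. None of these exceeded the 90th percentile of pileup in either library.

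The highest pileups of the list were at Meis2, a homeobox cofactor, with 33 and 45 at chr2:116156111-116156384, 88706 bp from the gene. Its relative Meis1 had sites at 63368 and 243878 bp, with 18 and 30 at the nearer and 15 and 23 at the farther. Sox4, a factor of endocardial cushions, had a site at 117574 bp with 19 and 23. Zfpm2, the GATA cofactor also called FOG2, had a site at 140022 bp with 17 and 24, where the ratio to background was the higher in the deficient-diet library.

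Myocd, the coactivator myocardin, had a site at 187816 bp with pileups of 16 and 27. Mef2c, a MADS-box factor of heart muscle, had sites at 683456 and 809600 bp, with normal-diet pileups of 18 and 14 and deficient-diet pileups of 21 and 26. Zeb2, a repressor in neural crest and cushion cells, had 2 sites at 1611962 and 1612763 bp, with normal-diet pileups of 15 and 17 and deficient-diet pileups of 21 and 23. At such distances these are names of the nearest gene only.

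The 26 factors without a site included Nkx2-5, Tbx5, Tbx20, Hand1 and Isl1. Of the 26, 9 were nearest to no intergenic peak of either list, and another 9 were nearest to intergenic peaks in both lists that did not overlap. Isl1 was of the second kind, with 3 normal-diet and 2 deficient-diet peaks, and so was Tbx5, with 1 and 5. Lack of a partner was common, and over the genome 4224 of 6980 intergenic normal-diet peaks had none. The shares of all protein-coding genes of these 2 kinds were not computed, so the counts say nothing particular to these factors.

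**Figure D5:**
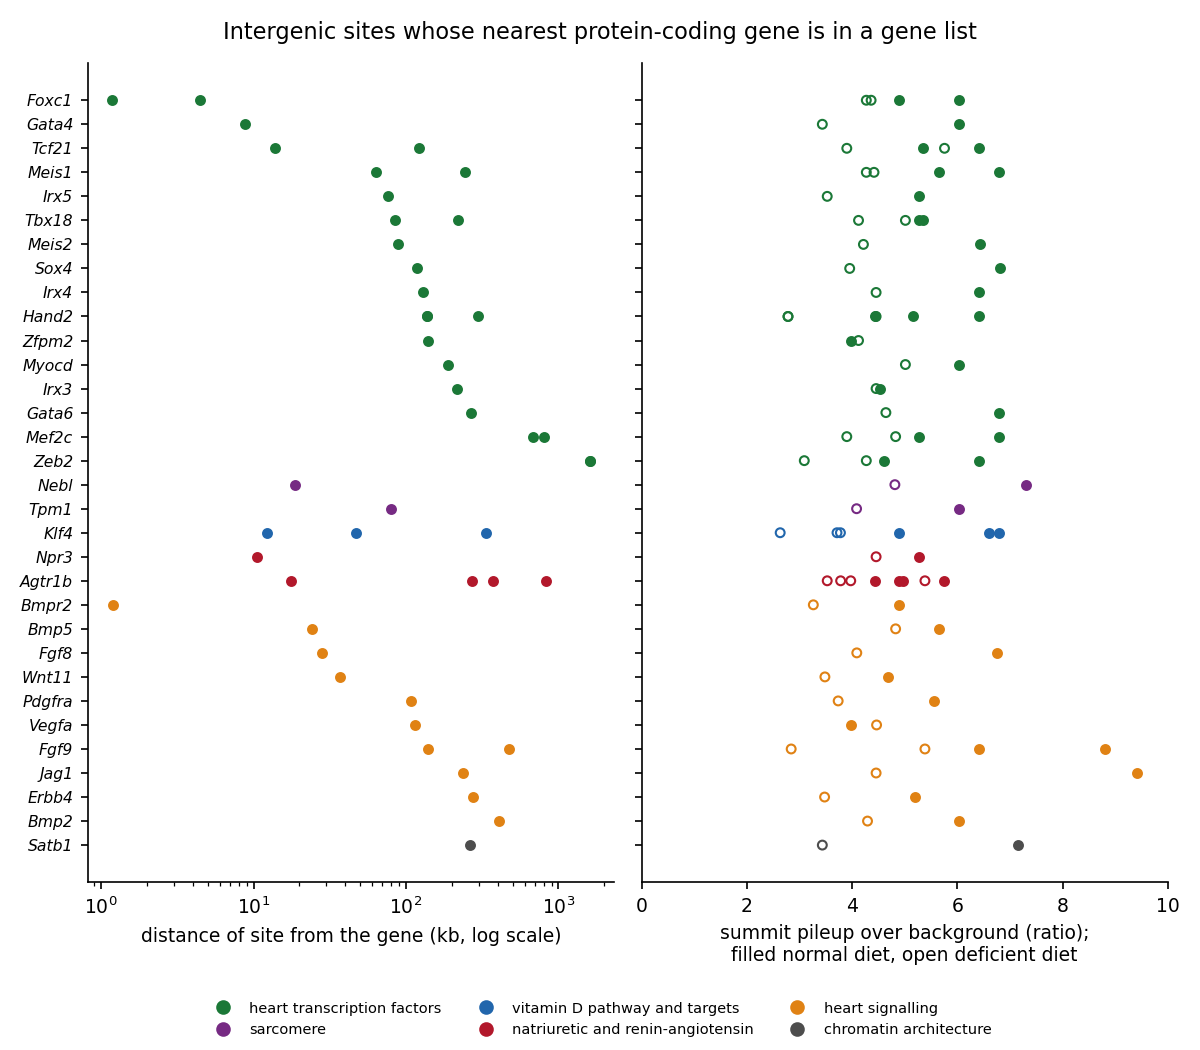
The 46 sites whose nearest protein-coding gene belongs to 1 of 6 gene lists, with the distance from the gene (kb, log scale) at left and the ratio of summit pileup to background at right, filled for the normal diet and open for the deficient diet. The ratio is higher in the normal-diet library at 43 of the 46, beside 93.6% of all sites.

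Klf4 was the single gene of the vitamin D list with a site. Of 27 pathway genes and classical targets 1 was the nearest protein-coding gene of a site, which is 3.70% (0.0937 to 19.0%), an interval that includes the 8.31% of all. The list had 1.81 sites per Mb (0.374 to 5.29), and 3 of its 9 intergenic normal-diet peaks had a partner. All 3 belonged to Klf4, which encodes a zinc finger factor, and lay at 12209, 46706 and 334973 bp. Their normal-diet pileups were 23, 18 and 13 and their deficient-diet pileups 23, 22 and 20. The nearest of the 3 had a ratio to background of 6.60 in the normal-diet library and 2.63 in the deficient-diet library, a wider gap than the medians of all sites.

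Cyp24a1, which encodes the enzyme that inactivates the hormone and is a classical VDR target, was nearest to no intergenic peak of either list. Vdr itself had 1 in the normal-diet library and none in the deficient-diet library. Rxra, the retinoid X receptor partner, had 4 in each list, none of them shared. In all, 20 of the 27 were nearest to no intergenic peak of either list. The share of all protein-coding genes without one was not computed. The gaps were short, with 0.0275 Mb of sequence nearest to Cyp24a1. The median was 0.021 Mb for the list, beside 0.0185 Mb for all protein-coding genes. Peaks inside genes or within 1000 bp of a gene end are not counted here.

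The natriuretic and renin-angiotensin list had 2 of 15 genes with a site (13.3%, 1.66 to 40.5%), at 2.75 sites per Mb (0.895 to 6.43). Both intervals include the values of all protein-coding genes. Npr3, the clearance receptor of natriuretic peptides, had 1 at 10519 bp with pileups of 14 and 24. Agtr1b, an angiotensin II receptor, had 4 between 17620 and 825238 bp, with normal-diet pileups of 15, 13, 19 and 16 and deficient-diet pileups of 22, 19, 29 and 27. Agtr1b was nearest to 10 intergenic peaks in each list, in a gap of 0.874 Mb. Nppa and Nppb, which encode the peptides themselves, had no site, in gaps of 0.00785 and 0.026 Mb.

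Of 21 sarcomere genes, Nebl and Tpm1 were nearest to 1 site each (9.52% of the genes, 1.17 to 30.4%), at 2.48 sites per Mb (0.3 to 8.95). Both intervals include the values of all protein-coding genes, 8.31% and 1.76 per Mb. The Nebl site, 18596 bp beyond the 3′ end of this Z-disc gene, had pileups of 25 and 28, and the Tpm1 site, 79259 bp from the tropomyosin gene, had 16 and 22. Of the sarcomere genes 18 were nearest to no intergenic peak of either list, and the median gap of the list was short, at 0.012 Mb. The share of all protein-coding genes without such a peak was not computed, so the count says nothing particular to sarcomere genes. Of 15 genes of chromatin architecture, Satb1, which encodes a chromatin organiser, was nearest to 1 site, at 262531 bp with pileups of 19 and 20. The list had 0.662 sites per Mb (0.0168 to 3.69), and neither Ctcf nor a cohesin gene of the list was nearest to any site. The sequence nearest to Ctcf came to 0.00867 Mb.

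Signalling genes of the heart had a site at 10 of 47 (21.3%, 10.7 to 35.7%), against 8.31% of all protein-coding genes. They again lay in wide gaps, with a median of 0.0972 Mb. The list had 1.31 sites per Mb (0.656 to 2.35), an interval that includes the 1.76 of all protein-coding genes. Of their 42 intergenic normal-diet peaks 11 had a partner (26.2%, 13.9 to 42.0%), and that interval includes the 39.5% of all. Among ligands, Bmp5 had a site at 24041 bp with pileups of 15 and 26, Fgf8 at 28261 bp with 22 and 27, and Wnt11 at 36815 bp with 16 and 23. Vegfa had a site at 114471 bp with 17 and 26, and Bmp2 at 408551 bp with 16 and 25. The deficient-diet count was the larger at each of these 5, as at nearly every site.

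Fgf9, a growth factor of the epicardium and endocardium, and Jag1, a Notch ligand, each had a site that differed from that. Fgf9 had sites at 139860 bp with pileups of 17 and 29 and at 474743 bp with 30 and 21. Jag1 had a site at chr2:137352265-137352758, 236077 bp from the gene, with pileups of 25 and 24. The farther Fgf9 site and the Jag1 site were the sites of these lists with the higher pileup in the shallower, normal-diet library. That was so at 60 of all 2756 sites (2.18%), and at Jag1 the counts were nearly equal. The ratios to background were 8.80 and 2.84 at the Fgf9 site and 9.42 and 4.46 at the Jag1 site.

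Among receptors, Bmpr2 had a site 1192 bp from its 5′ end with pileups of 13 and 19. Pdgfra had a site at 107574 bp with 19 and 29, and Erbb4, a neuregulin receptor, at 275589 bp with 20 and 27. Over the 6 lists together 32 of 167 genes had 46 sites, at 1.61 per Mb (1.18 to 2.14) beside 1.76 over all protein-coding genes. Of the 46, 11 had a -log10 q of 5 or more in both lists, beside 549 of all 2756 sites (19.9%).

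Few genes were nearest to many sites. Of 1798 protein-coding genes nearest to a site, 1269 had 1, 302 had 2, 132 had 3 and the highest number was 10. That was Aga, a lysosomal enzyme gene on chromosome 8, with sites 547579 to 1941508 bp away and pileups of 14 to 22 and 19 to 30. Grik2, a glutamate receptor gene, Lrfn5 and Pcdh10, which encode neuronal adhesion proteins, had 9 each. These were 10 of 15 intergenic normal-diet peaks nearest to Aga, 9 of 18 for Grik2, 9 of 13 for Lrfn5 and 9 of 15 for Pcdh10. The sequence nearest to these genes came to 2.03, 2.09, 1.91 and 2.29 Mb. At Nup35 8 of 9 such peaks had a partner in 0.699 Mb, and at Gulp1 7 of 7 in 0.424 Mb. The sites of Grik2, Lrfn5 and Pcdh10 had pileups of 14 to 20, 15 to 27 and 14 to 24 in the normal-diet library, close to the range of most sites.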

How the data were processed

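VDR ChIP-seq peak lists of 2 samples were used, 1 per maternal diet, grouped by the tissue labels. Peaks were called by the authors on mm10, and MACS2 and SAMtools are named, per the submitters' processing notes, without versions. The aligner, the threshold and the control library are not given in the sources used here. For each peak the authors deposited a fold enrichment at the summit, a ratio over local background, and the -log10 of the p-value and q-value. Depth was recovered from these: the fold was read as pileup plus 1 over background plus 1 and the p-value as a Poisson tail, which returned each deposited -log10 p to within 0.000293. Background counted as genome-wide within 0.001 fragments. One normal-diet line without a start was left out.

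Genes were 49997 RefSeq spans of GRCm38.p6, the build of mm10, with strand known for 17492 of 21900 protein-coding genes. A partner was the deficient-diet peak with the longest overlap, then the higher -log10 q. Shares carry Clopper-Pearson 95% intervals. Sequence lengths nearest to a gene were the gaps between protein-coding spans, shared equally by both neighbours, without chromosome ends. Sites named were the 8 of highest -log10 q in each list, the 6 farthest from genes, those next to the 1000-bp limit, and all nearest to a list gene. Genes with the most sites and the runs of sites, families and gap lengths were chosen after their values were seen. The sites and lists were chosen with earlier results of these data known. Alternatives changed overlap, -log10 q, gene distance, gene types, bins and background. Genome sequence was not used here, so no motif was searched. Python 3.11.15, numpy 2.4.6, pandas 2.3.3 and scipy 1.17.1 were used, and the scripts were tested on simulated data.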

Additional observations from a re-analysis of the deposited data

How the results depend on the processing

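Of 50 recomputed values of the 5 planned measures, 20 moved beyond their interval or by over 1.5 times. These settings were applied to the lists before pairing, so a site could pass through any deficient-diet peak and not just its longest partner, and for summits without overlap. Counts can therefore exceed those of the longest partners, which were 1483 for summits within 100 bp, 549 for -log10 q and 1130 for background. Requiring 50% overlap of both peaks gave 1789 sites, a partner share of 25.6% and a median summit distance of 64 bp. Summits within 100 bp gave 1499 sites, 21.5% and 42 bp. A -log10 q of 5 or more in both lists gave 555 sites, 22.2% and 79 bp, and genome-wide background in both gave 1140 sites, 29.5% and 76.5 bp. They leave fewer pairs by construction. The median distance to a gene end was 26167 bp over 3 kb from gene ends, 37546 bp over 10 kb, 72146 bp with protein-coding genes only, and 27385 bp without bins of 5 or more peaks. The partner share was 42.8% over 10 kb and 38.0% with protein-coding genes only, and, as an alternative chosen after seeing the data, 29.2% for peaks of 250 bp or less. The share with a protein-coding nearest gene was 28.2% over 10 kb. The partner share under placement by both summits and the share of protein-coding nearest genes among protein-coding genes only gave no value. In each added selection the partner share stayed higher beyond 100 kb than at 1 to 5 kb, for example 24.9% against 16.7% with the longest partner's summit within 100 bp. No paired analysis was possible because there is a single library for each diet, and for the same reason no library could be left out. Pileups of about 17 and 24 fragments limit what can be said of single sites.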

Other observations

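Some sites came in short runs. With gaps of at most 10000 bp, 461 of the 2756 sites lay in runs of 2 or more, and 2295 stood alone. The longest run had 6 sites, at chr10:27818889-27824265, with Lama2, which encodes a laminin chain of the muscle basement membrane, as the nearest protein-coding gene at over 202135 bp. Its pileups were 17 to 21 in the normal-diet library and 23 to 32 in the deficient-diet library, and the 6 sites shared 4 distinct deficient-diet peaks. A run of 5 near Nup35, at chr2:80811676-80816821, had pileups of 14 to 22 and 23 to 30. A run of 5 near Gm32719, at chr12:20228407-20234446, had 40 to 59 and 65 to 83, over backgrounds of at least 10.9 and 19.4 fragments.

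Receptor gene clusters of the nose held many sites. The 1-Mb window with the most sites was 22000001 to 23000000 on chromosome 7, with 15, followed by 20000001 to 21000000 on the same chromosome, with 12. In both, most of the nearest protein-coding genes were vomeronasal receptors of the Vmn1r family, which detect pheromones. Of 77 intergenic normal-diet peaks nearest to a Vmn1r gene on chromosome 7, 43 had a partner (55.8%, 44.1 to 67.2%), beside 39.5% of all intergenic normal-diet peaks. These genes were taken up because their windows held the most sites, so a high share was favoured by the choice. For vomeronasal receptors on all chromosomes the share was 48.0% (39.9 to 56.3%). The median pileups of the 43 sites on chromosome 7 were 18 and 26, and the normal-diet background was the genome-wide one at 30.2% of them, beside 55.5% of all sites. How reads that match several copies of a gene family were treated is not given in the sources used here, and its part was not tested.

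Families were set out by gene symbol after the data were seen, and the values are a description. Vomeronasal receptors were nearest to 73 sites, 2.65% of the sites (2.08 to 3.32%) beside 1.87% (1.48 to 2.33%) of intergenic normal-diet peaks without a partner. Olfactory receptors were nearest to 66 sites, 2.40% (1.86 to 3.04%) beside 1.82% (1.44 to 2.27%), and protocadherins to 36, 1.31% (0.917 to 1.80%) beside 0.876% (0.618 to 1.21%). Of the intergenic normal-diet peaks nearest to olfactory receptors, 46.15% (37.8 to 54.7%) had a partner. The share with a partner was 49.3% (37.4 to 61.3%) for protocadherins. Cadherins were nearest to 31, 1.13% beside 1.11%, and 39.7% of their intergenic normal-diet peaks had a partner. The intervals of these families overlapped between the groups. For zinc finger genes the share was 1.13% (0.766 to 1.59%) of the sites beside 1.80% (1.42 to 2.25%) of intergenic normal-diet peaks without a partner, and these intervals overlapped too. Of their 107 intergenic normal-diet peaks, 29.0% (20.6 to 38.5%) had a partner.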
